A study of Mus musculus with 12 samples.

Results

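Collagen genes were examined in hippocampal RNA of adult mice. They were taken as all protein-coding genes of the GENCODE annotation whose symbol is Col, a number, a and a number, which gave 44 of 22013 protein-coding genes and 219 of 115270 listed transcripts. The 12 libraries came from male C57BL/6 mice (C57BL/6J in the study's methods) at postnatal day 70, with 3 mice in each of 4 groups. Control mice were born to dams that drank only water and stayed with the dam. Ethanol mice were born to dams that could choose 10% ethanol in water throughout gestation and, by the study's methods, until postnatal day 10. Stress mice were born to dams on water and were isolated, away from the dam and their littermates, during 3 h of each day between postnatal days 2 and 14. Ethanol + stress mice had both exposures. Only part of each litter was isolated, so mice of different groups may have been littermates, and the ethanol taken by each pup is not known because dams drank by choice.

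Collagens are triple-helical proteins of the extracellular matrix, each made of 3 chains. In the brain the fibrillar collagens types I, III and V lie mainly in the meninges and around large vessels, where fibroblasts make them. Type IV collagen forms the sheet-like network of the vascular basement membrane, together with collagens XV and XVIII, which link that membrane to the surrounding matrix. Some other collagens are made by neurons, among them the transmembrane collagen XXV and collagen XIX.

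The deposited values are TPM, a measure of transcript abundance that is corrected for transcript length, and they had been scaled between libraries, so that they can be compared between genes and between mice. A gene's level is the sum over its transcripts. The libraries held 12100000 to 15010000 read pairs by the step between low values, and their sums were 889222 to 1173650. A gene's read pairs are printed as counts in each library, without scaling for the library's total. Fold changes from read pairs use a scale common to all libraries. Marker genes of hippocampal neurons summed to 2427 to 3126 TPM and those of thalamus to 23.9 to 36.2 TPM. Marker sums of meningeal fibroblasts (177 to 221 TPM), endothelial cells (175 to 215 TPM) and mural cells (138 to 175 TPM) varied little between libraries. Choroid plexus markers varied 176-fold, from 41.3 to 7257 TPM, and were low in ethanol 2, ethanol 3 and ethanol + stress 3. All 5 blood markers were higher in each exposed mouse than in any control mouse. In ethanol 2, ethanol + stress 2 and ethanol + stress 3 long transcripts lay low, with a change per doubling of transcript length of -0.086, -0.073 and -0.057 on the log2 scale, against -0.013 to 0.059 in the others. In bulk tissue, fewer cells of a type and less RNA per cell cannot be told apart.

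The 44 collagens together made up 108 to 152 TPM per library. A mean of 10 TPM or more was reached by 3 genes and a mean of 1 TPM or more by 25, while 19 genes lay under 1 TPM. The level of the highest, Col25a1, was 24.4 TPM on average, followed by Col9a3 at 13 TPM, Col4a1 at 10.9 TPM, Col19a1 at 8.87 TPM and Col11a2 at 8.41 TPM. The ranges of neighbouring genes in this order overlapped, as the plot of all levels shows. Collagens classed as transmembrane, FACIT (those that sit on the surface of fibrils) and basement membrane and the cartilage chain Col11a2 headed the order, ahead of Col1a2 at 6.71 TPM, the first of the type I chains. Low genes rested on few reads, with a median under 30 read pairs for 17 genes and at most 3 read pairs in at least 1 library for 5 genes. Values worth at most 3 read pairs cannot be told from 0 by counting error.

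**Figure D1:**
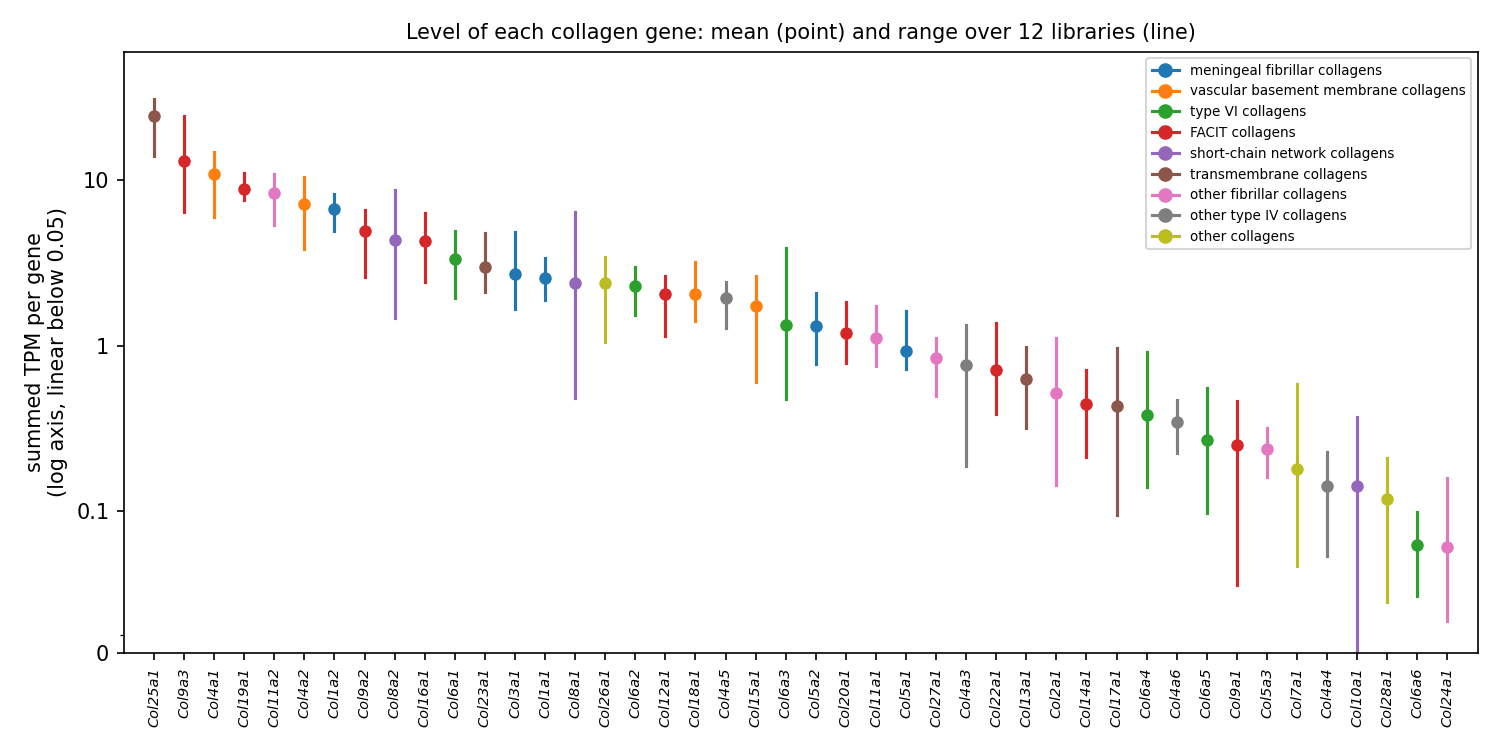
Summed TPM of each of the 44 collagen genes on an axis that is logarithmic above 0.05, with the mean over 12 libraries as a point and the lowest to highest library as a line. Colours mark the 9 classes; Col25a1 leads at 24.4 TPM, and lines are long for Col8a1 (0.486 to 6.39 TPM) and Col6a3 (0.474 to 3.9 TPM).

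Collagen transcripts were long and finely divided into exons. The highest transcript of the tested collagens had a median length of 5260 bases and 41 exons, against 2609 bases and 7 exons for the other tested protein-coding genes, and Col7a1 had the most exons (118). In fibrillar collagens the coding exons follow a repeat of the triple helix. Of the coding exons in the 5 meningeal fibrillar genes, 122 of 274 (44.5%) were exactly 54 bases long, as were 183 of 372 (49.2%) in the other fibrillar genes. In the 4 vascular basement membrane genes only 7 of 181 (3.87%) had that length, and the 6 coding exons of the short-chain genes included none. Several members are neighbours in GRCm38, the build also named mm10. Col3a1 and Col5a2 lie 24614 bases apart on chromosome 1, Col4a3 and Col4a4 only 71 bases apart, and Col6a1 and Col6a2 85161 bases apart on chromosome 10. Col4a1 (chr8:11198423-11312826, minus strand) and Col4a2 (chr8:11312805-11449287, plus strand) overlap at their starts. Whether the assignment of reads used their strand is not given in the sources used here, so reads from that overlap are uncertain.

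The first question was whether the fibrillar collagens of the meninges differed between groups. None of the 5 genes passed the test in any comparison. The 5 genes summed to 12.5, 14.9 and 14.4 TPM in control mice, 14.6, 12.6 and 15.5 TPM in ethanol mice, 17.6, 11.3 and 13.9 TPM in stress mice, and 18.6, 11.4 and 13.7 TPM in ethanol + stress mice. All 4 groups overlapped. Genes were called at an unadjusted p under 0.01 in a limma model of log2(TPM + 0.5) over all 12 libraries, and on this scale the changes of low genes come out too small. All comparisons share the same 3 control libraries.

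Col1a2, which encodes the second chain of type I collagen, had levels of 6.6, 6.48 and 7.38 TPM in control, 6.65, 6.7 and 7.22 TPM in ethanol, 7.64, 4.97 and 6.82 TPM in stress and 8.3, 5.86 and 5.85 TPM in ethanol + stress mice. The ethanol values lay inside the control range, while stress 2 and a pair of ethanol + stress libraries lay below it and stress 1 and ethanol + stress 1 above it. Its log2 fold changes, for ethanol, stress and ethanol + stress mice in turn, were 0.01 (SE 0.18), -0.09 and -0.05. Col1a1, the first chain, had levels of 2.13, 2.58 and 2.68 TPM in control, 2.76, 2.58 and 2.48 TPM in ethanol, 2.87, 2.12 and 2.51 TPM in stress and 2.84, 1.88 and 3.39 TPM in ethanol + stress mice. The groups overlapped, with log2 fold changes of 0.07 (SE 0.20), 0.01 and 0.09. The type I molecule holds more alpha-1 than alpha-2 chains, yet the RNA level of Col1a2 exceeded that of Col1a1 in 12 of 12 libraries, by a ratio of 1.72 to 3.12 (median 2.69). Each gene had 1 transcript that held nearly all of its read pairs, 99.8% for Col1a1-201 and 98.3% for Col1a2-201, and their ratio was 2.32 to 3.48.

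Col3a1, the chain of type III collagen, was more variable, at 1.94, 2.98 and 2.37 TPM in control, 2.47, 1.67 and 2.84 TPM in ethanol, 4.36, 1.92 and 2.25 TPM in stress and 4.88, 2.15 and 2.76 TPM in ethanol + stress mice. Single libraries, stress 1 and ethanol + stress 1, stood above the rest of their groups. Its log2 fold change was 0.31 (SE 0.32, adjusted p = 0.81) in ethanol + stress mice, and between 0.02 and 0.53 when 1 library was left out. Type V collagen starts fibril assembly, and the level of its chain gene Col5a2 was 1, 2.08 and 1.24 TPM in control mice against 1.07, 0.781 and 0.798 TPM in ethanol + stress mice. The 2 groups overlapped through ethanol + stress 1 (log2 fold change -0.46, SE 0.26, and -0.23 without control 2). Col5a1 had levels of 0.853, 0.763 and 0.724 TPM in control mice against 0.816, 0.829 and 1.63 TPM in ethanol mice, with ethanol 3 alone far above (log2 fold change 0.28, SE 0.23). Leaving out 1 library moved this value between 0.05 and 0.4. From read pairs it was 0.43 (SE 0.20), and that of Col5a2 in ethanol + stress mice was -0.39 (SE 0.19), neither called.

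**Figure D2:**
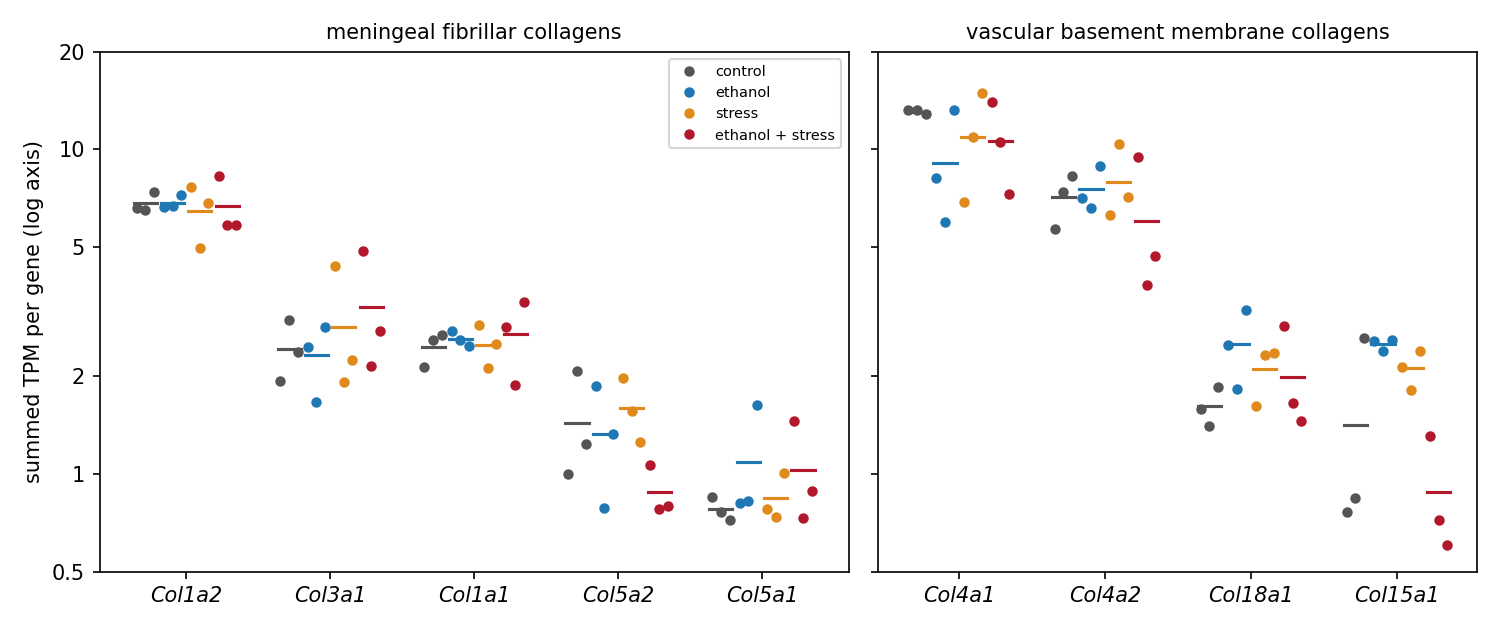
Summed TPM (log axis) of the 5 meningeal fibrillar collagens, left, and the 4 vascular basement membrane collagens, right, with 1 point per library and a bar for each group mean. Each exposed group overlaps control for every gene shown, and Col1a2 stays between 4.97 and 8.3 TPM, while Col15a1 runs from 0.604 to 2.63 TPM.

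The vascular basement membrane collagens were higher than the meningeal ones in every library but stress 1. Their 4 genes summed to 21.2, 22.9 and 25.6 TPM in control, 20.3, 16.8 and 27.9 TPM in ethanol, 16.9, 25.4 and 26.8 TPM in stress and 27.6, 16.7 and 14.1 TPM in ethanol + stress mice. Control mice were close together, and each exposed group held libraries above and below them. None of the 4 genes passed the test against control in any group.

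Col4a1, whose product pairs with that of Col4a2 in the common type IV molecule, had levels of 13.2, 13.2 and 12.8 TPM in control, 8.14, 5.97 and 13.2 TPM in ethanol, 6.88, 10.9 and 14.9 TPM in stress and 14, 10.5 and 7.3 TPM in ethanol + stress mice. The control SD was 0.223 TPM, whereas the exposed groups had SDs of 3.7, 4 and 3.33 TPM. The log2 fold changes were -0.57 (SE 0.31), -0.32 and -0.33, and from read pairs -0.21 (SE 0.23), -0.08 and -0.12. The ethanol value was -0.32 without ethanol 2 and -0.86 without ethanol 3. Col4a2 had levels of 5.69, 7.4 and 8.28 TPM in control, 7.08, 6.6 and 8.91 TPM in ethanol, 6.26, 10.4 and 7.12 TPM in stress and 9.5, 3.82 and 4.71 TPM in ethanol + stress mice. The last pair of values are those of libraries in which long transcripts lay low. Its log2 fold changes were 0.08 (SE 0.29), 0.13 and -0.31, and from read pairs -0.16 (SE 0.26), -0.04 and -0.33, so the first pair turned in sign. The ethanol + stress value was -0.67 without ethanol + stress 1 and -0.06 without ethanol + stress 2. The ratio of Col4a1 to Col4a2 was 0.904 to 2.76 with a median of 1.51 for sums, and 1.08 for the main transcripts Col4a1-201 and Col4a2-201. Isoforms of Col4a1 under 1000 bases held 33.9% of its TPM but 2.57% of its read pairs.

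Col18a1, the precursor of endostatin, had levels of 1.59, 1.41 and 1.85 TPM in control, 2.5, 1.83 and 3.19 TPM in ethanol, 1.62, 2.32 and 2.36 TPM in stress and 2.86, 1.66 and 1.46 TPM in ethanol + stress mice. The means of the exposed groups were above that of control, with overlap (log2 fold changes of 0.48, 0.29 and 0.20, SE 0.24). From read pairs the values were -0.09, 0.45 and 0.25 (SE 0.26), so the direction in ethanol mice turned, and the isoforms of 1000 bases or more stood at 1.59, 1.41 and 1.2 TPM in control against 1.15, 0.978 and 1.42 TPM in ethanol mice. Col15a1 (chr4:47208161-47313167) had levels of 0.763, 0.846 and 2.63 TPM in control, 2.57, 2.39 and 2.59 TPM in ethanol, 2.14, 1.81 and 2.4 TPM in stress and 1.31, 0.721 and 0.604 TPM in ethanol + stress mice. Control 3 had the highest level of all 12 libraries. On the TPM scale, and only with control 3 set apart after its value was seen, mice with a single exposure were high. The other control mice and the mice with both exposures were then low. The log2 fold change was 0.79 (SE 0.31, adjusted p = 0.997) for ethanol, 0.58 for stress and -0.37 for both exposures together. Without control 3 the values for ethanol (1.21) and for stress passed the threshold. Leaving out 1 library moved the value for both exposures between -0.61 and 0.05. From read pairs the values were -0.13, -0.04 and -0.15 (SE 0.26), so the directions for ethanol and stress turned.

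The median log2 fold change of the meningeal class was 0.01 for ethanol, 0.06 for stress and 0.09 for ethanol + stress. That of the vascular class was 0.28, 0.21 and -0.32, and that of all 18434 tested genes 0.02, 0.00 and 0.02. Leaving out 1 library moved the vascular medians to between 0.14 and 0.41, 0.08 and 0.35, and -0.57 and -0.08. The moves of over 1.5 times were to 0.14 without ethanol 3, to 0.13, 0.35 and 0.08 without control 1, stress 1 or stress 2, and to -0.08, -0.57, -0.18 and -0.15 without control 3, ethanol + stress 1, 2 or 3. The vascular value in ethanol + stress mice became 0.25 without the 3 libraries whose long transcripts lay low, which leaves 1 ethanol + stress library, assumed to vary like the others. When read pairs replaced TPM, the vascular values became -0.14, -0.04 and -0.13, and the meningeal ones -0.04, 0.02 and -0.02.

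Of the 44 collagens, 42 were tested, and Col24a1 and Col6a6 were too low. In ethanol mice 1 of 42 was called, while 0.678% of all tested genes were. In stress mice 0 of 42 were called by limma, against 0.51% of all genes. In ethanol + stress mice 1 of 42 was called, against 0.971% of all genes. For the interaction, which asks whether the difference in mice with both exposures departs from the sum of the single differences, 1 of 42 was called, against 0.461% of all genes. An unadjusted p under 0.05 was found for 3, 0 and 5 of the 42 collagens in the 3 comparisons with control, while 3.63%, 2.4% and 5.37% of all tested genes had one. No adjusted p of a collagen gene was under 0.05, the smallest being 0.791. The values of an exposed group lay outside those of control mice for 3 genes above and 1 below in ethanol, 0 above and 1 below in stress, and 2 above and 3 below in ethanol + stress mice. Among all tested genes such values were found for 8.25%, 7.2% and 10.2%, so the collagens did not stand out in these counts.

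**Figure D3:**
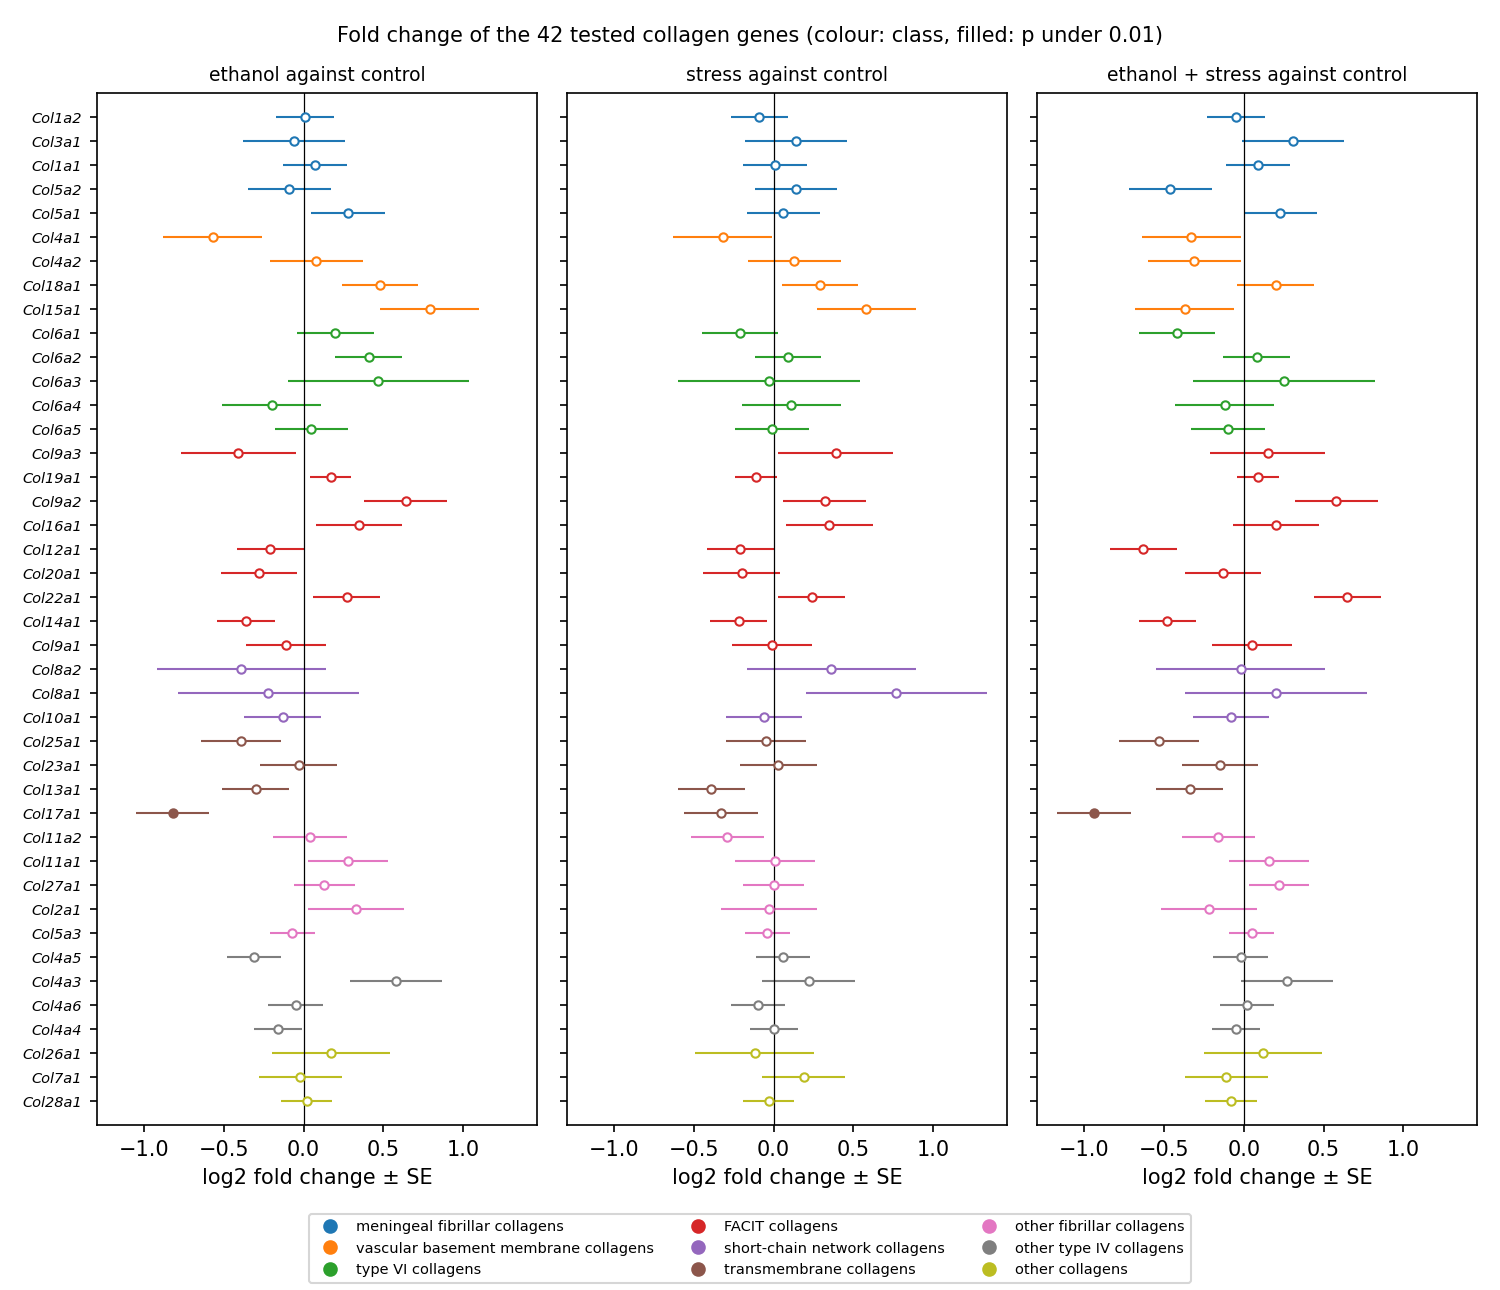
Log2 fold change against control with its SE for the 42 tested collagen genes in ethanol, stress and ethanol + stress mice, ordered and coloured by class, with filled points for an unadjusted p under 0.01. Only Col17a1 is filled, at -0.82 in ethanol and -0.94 in ethanol + stress mice.

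By class, the transmembrane collagens had median log2 fold changes of -0.34, -0.19 and -0.43 in ethanol, stress and ethanol + stress mice, and of -0.12, -0.07 and -0.30 from read pairs. The other classes had medians of 0.20, -0.01 and -0.10 (type VI), -0.11, -0.01 and 0.09 (FACIT), -0.22, 0.36 and -0.02 (short-chain), 0.13, -0.03 and 0.05 (other fibrillar), -0.11, 0.03 and 0.00 (other type IV) and 0.02, -0.03 and -0.08 (the other collagens). From read pairs they became -0.11, -0.02 and -0.25 (type VI), -0.02, -0.09 and -0.10 (FACIT), -0.41, 0.66 and 0.02 (short-chain, 2 genes tested), 0.05, -0.14 and 0.09 (other fibrillar), -0.23, 0.11 and -0.03 (other type IV) and 0.61, 0.07 and 0.27 (the other collagens, 2 genes tested), so that several medians turned in sign. All 42 tested collagens together had medians of -0.01, -0.00 and -0.03.

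The called gene in both ethanol comparisons was Col17a1 (chr19:47646344-47692094, minus strand), a transmembrane collagen that anchors epithelial cells to the basement membrane. Its levels were 0.785, 0.604 and 0.966 TPM in control, 0.405, 0.0992 and 0.192 TPM in ethanol, 0.789, 0.575 and 0.258 TPM in stress and 0.203, 0.201 and 0.0948 TPM in ethanol + stress mice. All mice exposed to ethanol lay below all control mice, and stress mice overlapped them. The log2 fold changes were -0.82 (SE 0.23, adjusted p = 0.997) in ethanol and -0.94 (adjusted p = 0.791) in ethanol + stress mice. In ethanol mice the call was lost without control 1, control 3, ethanol 2 or ethanol 3, with values of -0.82, -0.72, -0.69 and -0.79.

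The sum of Col17a1 rested on isoforms that few reads support. A transcript of a given TPM yields read pairs in proportion to its length, so short isoforms can dominate a sum while resting on few reads. Isoforms of Col17a1 under 1000 bases held 55% of its TPM but 7.43% of its read pairs. They stood at 0.717, 0.478 and 0.812 TPM in control mice, and at 0.151, 0 and 0.0111 TPM in ethanol mice. The short isoforms Col17a1-203 and Col17a1-204 were worth at most 2 read pairs each in a control or ethanol library, which cannot be told from 0. The isoforms of 1000 bases or more had 0.0686, 0.126 and 0.154 TPM in control mice against 0.254, 0.0992 and 0.181 TPM in ethanol mice, which overlapped. In read pairs, Col17a1 had 3.9, 6.98 and 7.9 in control, 12.9, 3.99 and 8.98 in ethanol, 11, 23 and 13 in stress and 7.98, 8.96 and 4 in ethanol + stress mice. These counts overlapped between the ethanol groups and control, and the log2 fold changes from read pairs were 0.24 (SE 0.48, adjusted p = 0.999) in ethanol and 0.02 (adjusted p = 0.99) in ethanol + stress mice. The direction given by the sum thus did not hold on this scale. In stress mice all 3 counts lay above those of control (1.13, SE 0.48, adjusted p = 1, not called), where the sum had given -0.33, and the interaction from read pairs was -1.35 (SE 0.68, adjusted p = 1).

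Short isoforms also made up most of the sum of Col15a1, the gene called for the interaction (-1.74 on the log2 scale, SE 0.44, adjusted p = 1). Its 5 annotated isoforms under 1000 bases held 59.5% of the TPM but 6.75% of the read pairs. They stood at 0.0361, 0.133 and 1.89 TPM in control, 1.65, 1.8 and 2.08 TPM in ethanol, 1.59, 1.14 and 1.44 TPM in stress and 0.542, 0.0261 and 0.0268 TPM in ethanol + stress mice. This is the pattern of the sum, and control 3 owed its high level to them. The longer isoforms stood at 0.727, 0.713 and 0.738 TPM in control, 0.923, 0.59 and 0.51 TPM in ethanol, 0.549, 0.671 and 0.955 TPM in stress and 0.768, 0.694 and 0.578 TPM in ethanol + stress mice. Those groups overlapped. In read pairs the gene had 30, 26.9 and 32.8 in control, 44.7, 20.8 and 27.7 in ethanol, 27.9, 23.9 and 46.8 in stress and 34.9, 30.9 and 23 in ethanol + stress mice, and the interaction was 0.02 (SE 0.37, adjusted p = 1).

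**Figure D4:**
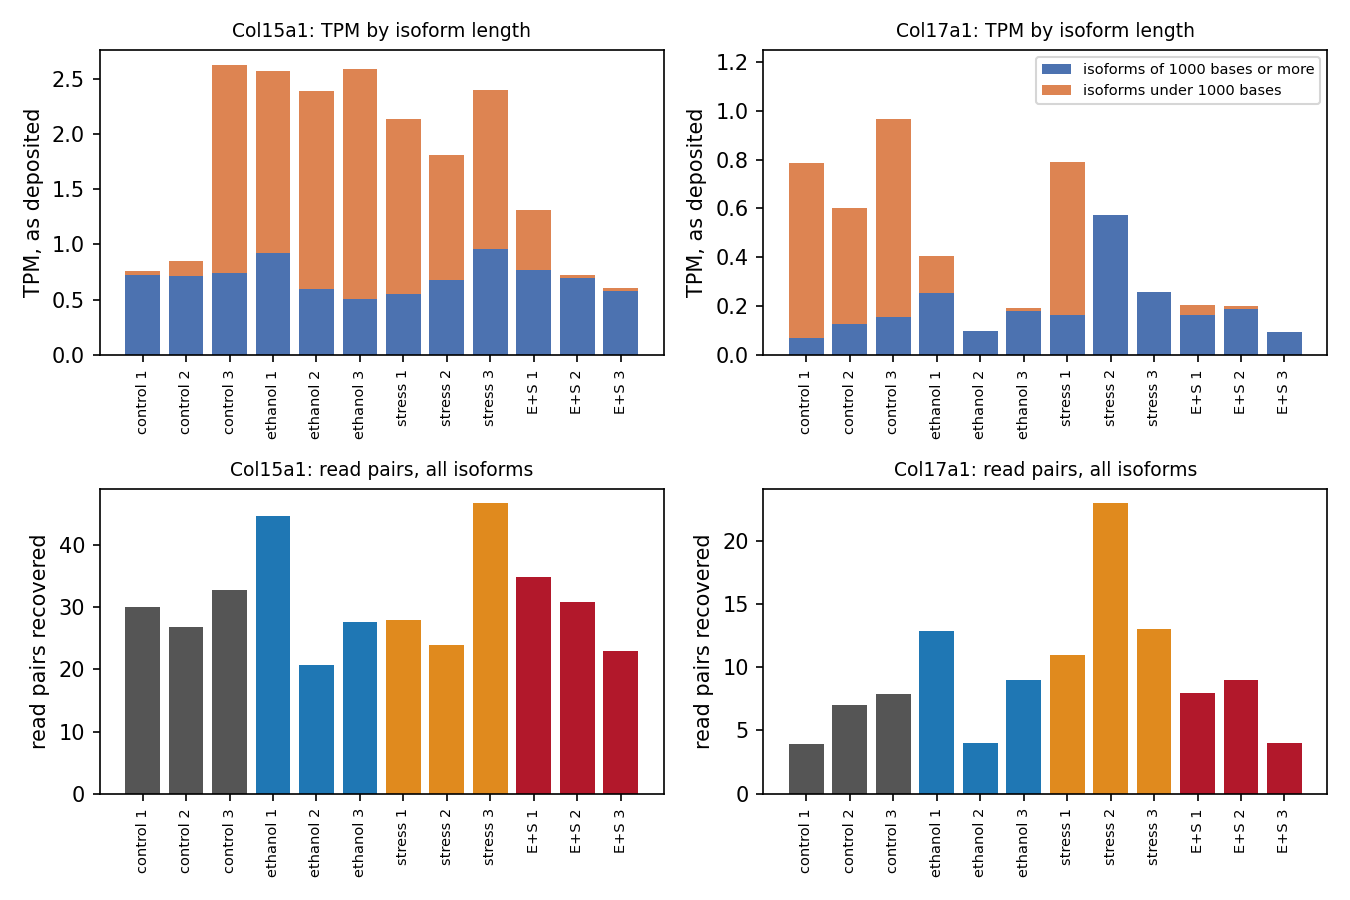
Col15a1, left, and Col17a1, right, in each library: the upper bars give TPM as deposited, split into isoforms under 1000 bases and longer ones, and the lower bars give recovered read pairs over all isoforms, coloured by group. Read pairs are not scaled for the total of a library. In read pairs both ethanol groups overlap control for each gene, and for Col17a1 the 3 stress libraries (11 to 23) lie above the 3 control libraries (3.9 to 7.9).

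Of the 219 collagen transcripts, 23 were listed at 0 in every library and 175 at 0 in at least 1, and 83 were tested. In ethanol mice 3 were called, all higher, against 1.26% of all tested transcripts. In stress mice 1 was called, also higher, against 0.914%, and in ethanol + stress mice 0 were called by limma, against 1.21%. An unadjusted p under 0.05 was found for 10, 1 and 3 of the 83 in ethanol, stress and ethanol + stress mice. Among all tested transcripts 5.43%, 3.88% and 5.57% had one. The lowest p belonged to Col15a1-209, a non-coding transcript of 345 bases (chr4:47258535-47262299). Its values were 0.0361, 0 and 0 TPM in control, 0.527, 1.24 and 0.85 TPM in ethanol, 0.244, 0.364 and 0.383 TPM in stress and 0, 0.0261 and 0 TPM in ethanol + stress mice. Ethanol and stress mice lay above all control mice, and only their libraries reached 0.1 TPM, the level that the filter asked for in 6 or more libraries. The transcript thus entered the test only through the groups where it was high, so its calls add no support. It was called in ethanol (log2 fold change 1.39, SE 0.20, adjusted p = 0.241) and in stress mice (0.69, adjusted p = 0.953), where the call was lost in 5 of 6 fits that left out 1 library, the exception being stress 1, and at a pseudocount of 1. Its highest value was worth 1.36 read pairs, so every library was at the floor.

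Col18a1-204, of 717 bases, had values of 0, 0 and 0.54 TPM in control mice against 1.35, 0.723 and 1.78 TPM in ethanol mice, worth at most 8.52 read pairs (log2 fold change 1.43, SE 0.39, adjusted p = 0.701). That call was lost without control 1, control 2, ethanol 1 or ethanol 3 (1.24 to 1.39) and at a pseudocount of 0.1. Col6a2-202 had values of 0.0711, 0.0839 and 0 TPM in control mice against 0.373, 0.484 and 0.389 TPM in ethanol mice (0.73, SE 0.18, adjusted p = 0.628), a call lost without control 3 (0.66). The latter is a long isoform of 4653 bases, and its read pairs were 2.62, 2.8 and 0 in control and 14.8, 16.4 and 16.2 in ethanol mice. The control values were at the floor and the ethanol values above it, although reads that fit both this isoform and Col6a2-201 are divided between them by estimate. Col6a2 as a whole had levels of 2.02, 2.04 and 1.9 TPM in control mice against 2.52, 2.87 and 3 TPM in ethanol mice, which did not overlap but did not pass the test (0.41, SE 0.21). Its read pairs were 63.9, 57.8 and 57.8 in control and 87.6, 85.7 and 109 in ethanol mice, also without overlap. From them the log2 fold change was 0.52 (SE 0.23, adjusted p = 0.999), with an unadjusted p under 0.05 and not called.

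Type VI collagens form beaded microfibrils from the chains of Col6a1, Col6a2 and Col6a3. Col6a1 had levels of 3.28, 3.35 and 4.09 TPM in control mice against 3.6, 1.94 and 2.28 TPM in ethanol + stress mice, which overlapped (log2 fold change -0.42, SE 0.24). The level of Col6a1 exceeded that of Col6a2 in 11 of 12 libraries, by a median ratio of 1.49. Col6a3 ranged 8.23-fold, from 0.474 TPM in ethanol + stress 2 to 3.9 TPM in ethanol 1. Most of this range came from Col6a3-207, of 476 bases, which was at 2.3 TPM in ethanol 1 and 2.32 TPM in ethanol + stress 3 and was listed at 0 in 6 libraries. The read pairs of Col6a3 over all isoforms ranged only from 32.9 to 61.8.

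Among the FACIT collagens, Col9a2 had levels of 4.17, 2.93 and 3.67 TPM in control, 6.23, 4.73 and 6.65 TPM in ethanol, 5.98, 2.6 and 5.93 TPM in stress and 5.69, 5.26 and 5.72 TPM in ethanol + stress mice. Both ethanol groups lay above control, without passing the threshold (log2 fold changes of 0.64 and 0.58, SE 0.26, both with an unadjusted p under 0.05). From read pairs these fell to 0.26 and 0.29 (SE 0.27), and ethanol 2, with 44.8 read pairs, lay below the controls (49.8 to 59.8). Here too a short non-coding transcript, Col9a2-202, held 51.7% of the sum, and the main coding one, Col9a2-201, held 81.6% of the read pairs. Col19a1, made by interneurons of the hippocampus and known for a part in synapse formation, had the narrowest range of the 10 highest collagens (1.45-fold). Its level ran from 7.62 to 11.1 TPM, and its residual SD of 0.13 (log2) was larger than that of only 13.8% of genes of like level. Col16a1 ran from 2.44 to 6.37 TPM with overlap of all groups, and so did Col11a2, a fibrillar chain best known from cartilage, from 5.34 to 10.9 TPM.

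Other FACIT collagens came near the threshold in ethanol + stress mice. Col12a1, which binds type I fibrils, had levels of 2.56, 2.53 and 2.48 TPM in control mice against 1.96, 1.15 and 1.32 TPM in ethanol + stress mice (-0.63, SE 0.21). Col22a1 had levels of 0.624, 0.387 and 0.406 TPM in control mice against 1.38, 0.894 and 0.826 TPM in ethanol + stress mice (0.65, SE 0.21). Col14a1 had levels of 0.507, 0.652 and 0.713 TPM in control mice against 0.287, 0.335 and 0.281 TPM in ethanol + stress mice (-0.48, SE 0.18). On the TPM scale none of these groups overlapped control, and all had adjusted p values of 0.791. In read pairs Col12a1 (172, 95.6 and 98.9 against 147, 128 and 144 in control) and Col22a1 (35.1, 37.7 and 29.5 against 34.7, 21.5 and 22.9) overlapped control, with log2 fold changes of -0.36 (SE 0.19) and 0.28 (SE 0.22). Col14a1 had 16, 15.9 and 11 read pairs against 24, 20.9 and 21.9 in control, without overlap (-0.75, SE 0.26, adjusted p = 0.718). They lie outside the rule for named genes and were chosen after their values were seen.

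Col25a1 (chr3:130131501-130599877) encodes a neuronal transmembrane collagen whose shed part is found in amyloid plaques. Its levels were 24.7, 30.5 and 29.4 TPM in control, 22.2, 15.5 and 28.2 TPM in ethanol, 25.7, 30.9 and 24.9 TPM in stress and 29.1, 14.1 and 17.5 TPM in ethanol + stress mice. It was lowest in ethanol 2, ethanol + stress 2 and ethanol + stress 3, the libraries with low long transcripts, and its main transcript is 6701 bases long. The log2 fold changes were -0.39 (SE 0.25), -0.05 and -0.53 (adjusted p = 0.791). With each library's trend over transcript length removed, the last became -0.46 (SE 0.20). The summed markers of hippocampal neurons were 2721, 2525 and 2427 TPM in those 3 libraries and 2824 to 3126 TPM in the others. The part of transcript length and of neuronal RNA in these values was not tested further. Leaving out 1 library moved the ethanol + stress value between -0.82, without ethanol + stress 1, where the gene was called, and -0.31, without ethanol + stress 2. The ethanol value moved between -0.59 and -0.16.

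Col8a1, Col8a2 and Col9a3 were among the collagens that varied most between mice, and they varied with choroid plexus RNA. Col8a1 (chr16:57624258-57754737, minus strand) and Col8a2 (chr4:126286793-126314330) encode the short chains of type VIII collagen, which forms hexagonal networks in vessel walls and in the membrane under the corneal endothelium. Col8a1 had levels of 1.48, 1.44 and 2.35 TPM in control, 2.93, 1.28 and 0.635 TPM in ethanol, 2.15, 6.39 and 2.51 TPM in stress and 3.42, 3.78 and 0.486 TPM in ethanol + stress mice. Col8a2 had levels of 4.21, 3.25 and 4.31 TPM in control, 6.79, 1.99 and 1.6 TPM in ethanol, 4.54, 8.74 and 3.37 TPM in stress and 5.63, 6.26 and 1.48 TPM in ethanol + stress mice. Both were lowest in ethanol 2, ethanol 3 and ethanol + stress 3 and highest in stress 2. Col9a3, a chain of type IX collagen, had levels of 11.2, 11.1 and 13.6 TPM in control, 14.7, 7.17 and 6.46 TPM in ethanol, 14.3, 24.3 and 11.3 TPM in stress and 13.4, 20.5 and 8.56 TPM in ethanol + stress mice. The same libraries were low and high. The residual SD within groups was 0.82, 0.77 and 0.52 (log2) for the 3 genes, above that of 94.1%, 96.4% and 98.1% of genes of like level.

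Ttr, which encodes the transport protein transthyretin and is among the most abundant transcripts of the choroid plexus, had levels of 1251, 591 and 1782 TPM in control, 3424, 70.7 and 30 TPM in ethanol, 1785, 5100 and 1600 TPM in stress and 2235, 7089 and 191 TPM in ethanol + stress mice. Over the 12 libraries Col8a1 and Ttr were correlated with r = 0.86 and rho = 0.94 (permutation p = 0.00028 and 6e-05, adjusted over 10 relations 0.0028 and 0.0006). Without stress 2 and ethanol + stress 3 r was 0.91, and within groups it was 0.88. Col8a2 (r = 0.92, rho = 0.95, permutation p = 3e-05 and 1e-05) and Col9a3 (r = 0.93, rho = 0.97, both p = 1e-05) were added after the first result was seen, and 1e-05 is the smallest p that these permutations can give. Their p values for r, adjusted over all 12 relations, were 0.00018 and 0.00012. Without the 2 libraries farthest from the median of the collagen, r was 0.91 and 0.96. In the 9 libraries with Ttr above 500 TPM, r was 0.86 for Col8a1, 0.86 for Col8a2 and 0.87 for Col9a3 (exact permutation p = 0.00422, 0.00292 and 0.00118, adjusted over the 3 relations 0.00422, 0.00422 and 0.00355). The relations thus did not rest on the 3 libraries with little Ttr. The source of these transcripts was not tested.

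**Figure D5:**
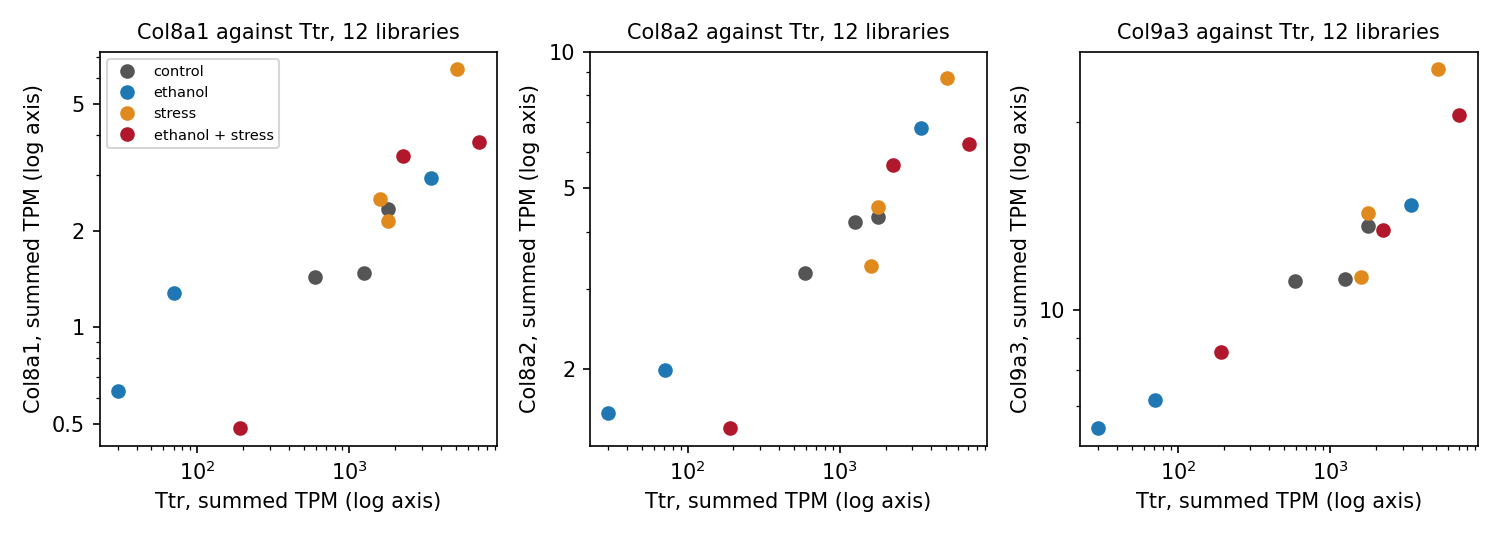
Summed TPM of Col8a1, Col8a2 and Col9a3 against that of Ttr, both on log axes, with 1 point for each of 12 libraries coloured by group. Ttr runs from 30 TPM in ethanol 3 to 7089 TPM in ethanol + stress 2, and the 3 collagens are low where Ttr is low and high where it is high (r = 0.86, 0.92 and 0.93).

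None of the 3 genes differed between groups beyond this spread. The log2 fold changes of Col8a1 were -0.22 (SE 0.57), 0.77 and 0.20, those of Col8a2 -0.39 (SE 0.53), 0.36 and -0.02, and those of Col9a3 -0.41 (SE 0.36), 0.39 and 0.15. Leaving out 1 library moved the ethanol + stress value of Col8a1 between -0.18 and 0.88. Choroid plexus markers were, at the median, -0.76 for ethanol, 1.10 for stress and 0.38 for ethanol + stress on the log2 scale, with 0 of 8 called by limma and 0 with p under 0.05 in each comparison. Of all genes 0.678%, 0.51% and 0.971% were called and 3.63%, 2.4% and 5.37% had such a p. These counts thus do not show that the markers were level. The level of Col8a2 exceeded that of Col8a1 in 12 of 12 libraries, by a ratio of 1.35 to 3.05.

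The promoters of both type VIII genes are shown because these genes on different chromosomes varied together. The sequences are from RefSeq for GRCm38.p6, which held 35 of the 44 collagens, and run 5′ to 3′ on the gene's strand up to the base before the annotated start, with chr16:57754738-57754987 (minus strand, 250 bases) for Col8a1 and chr4:126286544-126286792 (plus strand, 249 bases) for Col8a2. Capitals mark GC boxes (GGGCGG or, on the other strand, CCGCCC).
Col8a1: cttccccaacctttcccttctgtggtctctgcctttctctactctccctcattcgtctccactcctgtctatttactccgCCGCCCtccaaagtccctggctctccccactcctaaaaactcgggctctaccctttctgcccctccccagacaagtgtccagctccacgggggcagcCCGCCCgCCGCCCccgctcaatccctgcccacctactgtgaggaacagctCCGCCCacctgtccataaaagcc
Col8a2: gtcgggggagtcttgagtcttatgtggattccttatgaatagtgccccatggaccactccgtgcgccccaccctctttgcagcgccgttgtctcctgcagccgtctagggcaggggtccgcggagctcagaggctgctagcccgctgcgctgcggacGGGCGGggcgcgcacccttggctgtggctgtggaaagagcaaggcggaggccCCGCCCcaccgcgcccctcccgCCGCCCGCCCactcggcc
Each window held 4 GC boxes, of which a pair overlap in Col8a2. At least 1 was held by 32.7% of 32851 promoter windows of 250 bases, and the share of windows with 4 was not counted. Whether the boxes bear on the shared variation was not tested. The letters TATAAA (12.4% of windows), CCAAT (33.8%) and TAATCC (6.25%), searched on both strands, were in neither window.

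On the deposited scaling the relations between chains that assemble together did not pass after adjustment. Over 12 libraries r was 0.41 for Col1a1 with Col1a2 (rho = 0.43, permutation p = 0.18, adjusted 0.368), 0.38 for Col4a1 with Col4a2 (rho = 0.52, p = 0.221, adjusted 0.368) and 0.64 for Col6a1 with Col6a2 (rho = 0.65, p = 0.0254, adjusted 0.086). Without ethanol + stress 2 and 3 the first rose to 0.76, and without ethanol 3 and ethanol + stress 2 the last fell to 0.36. Col1a2 and Col3a1, both fibroblast genes, had r = 0.64 (rho = 0.51, p = 0.0258, adjusted 0.086), which was 0.39 without stress 2 and ethanol + stress 1. The vascular and meningeal collagens Col4a1 and Col1a2 had r = 0.16 (rho = 0.22, permutation p = 0.612, adjusted 0.753). Markers of the cells that make them gave r = 0.40 for Col1a2 with Dcn, the fibroblast gene of decorin (rho = 0.22, permutation p = 0.195, adjusted 0.368), and 0.02 for Col4a1 with Cldn5, the endothelial gene of claudin-5 (rho = 0.10, permutation p = 0.94, adjusted 0.94). For the crossed pairs r was 0.13 for Col4a1 with Dcn (rho = 0.15, permutation p = 0.677, adjusted 0.753) and -0.26 for Col1a2 with Cldn5 (rho = -0.45, p = 0.429, adjusted 0.613). These values depended on the scaling. Rescaled to a common total, Col6a1 with Col6a2 (r = 0.74), Col1a2 with Col3a1 (0.74) and Col1a2 with Dcn (0.67) passed (adjusted permutation p = 0.0227, 0.0227 and 0.0421). Col1a1 with Col1a2 and Col4a1 with Col4a2 (both 0.60, adjusted permutation p = 0.0554) did not. After rescaling to a common total r was 0.56 for Col4a1 with Col1a2, 0.62 for Col4a1 with Dcn, 0.49 for Col4a1 with Cldn5 and 0.19 for Col1a2 with Cldn5, the last turning in sign, while the 3 relations with Ttr stayed at 0.86 to 0.92. With 12 libraries of shared scaling, a relation that did not pass is not shown to be absent.

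Few genes of the machinery around collagen passed the test. Of 30 genes for collagen biosynthesis (prolyl and lysyl hydroxylases, chaperones and cross-linking enzymes), 0 were called by limma in any comparison, and 0, 1 and 0 had an unadjusted p under 0.05 in ethanol, stress and ethanol + stress mice, with medians of -0.03, 0.05 and 0.11. Of all genes 3.63%, 2.4% and 5.37% had such a p. At the shares of all genes called (0.678%, 0.51% and 0.971%), lists of this size would hold about 0 calls, so these counts do not show that the genes were level. Serpinh1, the collagen chaperone, and the other genes of this list summed to 632 to 741 TPM. Of 15 laminins and other non-collagen components of basement membranes, 0 were called and 0 had p under 0.05 in each comparison, with medians of -0.12, -0.09 and -0.18 against 0.02, 0.00 and 0.02 for all genes. The value was above 0 for 3, 3 and 5 of these 15 genes. A p under 0.05 was found for 3.63%, 2.4% and 5.37% of all genes.

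Of 10 collagen receptors, 1 was called, in ethanol + stress mice, where 0.971% of all genes were, and 2, 0 and 2 had an unadjusted p under 0.05 in ethanol, stress and both exposures. Of all genes 3.63%, 2.4% and 5.37% had such a p. Ddr1, a receptor tyrosine kinase that binds collagen and is abundant in oligodendrocytes, had levels of 37.3, 37 and 41.7 TPM in control, 36.8, 29.1 and 28.5 TPM in ethanol, 39.5, 40.8 and 36.8 TPM in stress and 31.9, 29.4 and 28.9 TPM in ethanol + stress mice. Both ethanol groups lay below control, and stress mice overlapped it. Ddr1 was called in ethanol + stress mice (log2 fold change -0.36, SE 0.11, adjusted p = 0.791), while the value for ethanol was -0.30 (adjusted p = 0.997). Read pairs are not given for the genes of this paragraph. The integrin gene Itga1, the chain of a receptor for collagen, had levels of 2.68, 3.76 and 3.67 TPM in control mice against 2.42, 2.46 and 1.88 TPM in ethanol mice, without overlap and not called (-0.48, SE 0.17, adjusted p = 0.997). It was chosen after its values were seen. Of 10 genes for collagen breakdown and its inhibitors 8 were tested. An unadjusted p under 0.05 was found for 0, 1 and 0 of them in ethanol, stress and ethanol + stress mice, against 3.63%, 2.4% and 5.37% of all genes. Mmp2, a gelatinase that cuts type IV collagen, was called for the interaction only (-1.07, SE 0.30, adjusted p = 1), where 0.461% of all genes were. Its levels were 1.69, 1.76 and 1.29 TPM in control, 2.79, 1.96 and 1.89 TPM in ethanol, 3.02, 3.13 and 2.07 TPM in stress and 1.13, 1.74 and 1.6 TPM in ethanol + stress mice. Each single exposure lay above control and the combination overlapped it. Among all genes, 8.25% in ethanol and 7.2% in stress mice had values that did not overlap control.

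Few markers of the cells that make these collagens passed the test. Of 10 meningeal fibroblast markers 1 was called, against 0.971% of all genes in that comparison, and it was also the single marker with an unadjusted p under 0.05 in each of the 3 comparisons with control. This was Igf2, a growth factor also made by choroid plexus. It had levels of 18.9, 14.2 and 17.3 TPM in control against 23.9, 29.6 and 21.5 TPM in ethanol + stress mice (0.56, SE 0.17, adjusted p = 0.791). Read pairs are not given for Igf2. Its levels of 27.1, 22.1 and 20.4 TPM in ethanol and 19.4, 27.4 and 24.7 TPM in stress mice also lay above all control values, with log2 fold changes of 0.45 (adjusted p = 0.997) and 0.49 (adjusted p = 1) that were not called. Of 10 endothelial and 10 mural markers 0 were called by limma in any comparison with control, with 1, 0 and 0 endothelial and 0, 0 and 1 mural genes at p under 0.05, where 3.63%, 2.4% and 5.37% of all genes had such a p. The 5 blood markers, globin genes and Alas2 of haem synthesis, were all called higher in ethanol (median 1.24, against 0.678% of all genes called) and ethanol + stress mice (1.08, against 0.971%), and in stress mice their median was 0.70, with 0 of 5 called and 3 at an unadjusted p under 0.05. They summed to 1603 to 2022 TPM in control mice and 2454 to 6815 TPM in exposed mice. Their part in the values of vascular collagens was not tested.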

How the data were processed

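Hippocampal RNA of 12 mice was sequenced from stranded total RNA libraries depleted of rRNA. Paired-end reads were assigned by the authors to Ensembl transcripts of the mouse with kallisto, and the deposited signal is TPM per transcript after scaling between libraries. The submitters' processing notes also name CASAVA, sleuth and the build mm10, and versions of kallisto, CASAVA and sleuth are not given in the sources used here. Of 115270 transcripts, 113580 were matched to GENCODE vM21 by identifier, 112441 of them with the same version.

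TPM were summed per gene. The test was run on 18434 genes and 59852 transcripts that reached 0.1 TPM in 6 or more libraries, on the log2(TPM + 0.5) scale, by limma 3.58.1 under R 4.3.3 (lmFit, eBayes with trend, 4 groups, no replicate block, two-sided). Features with an unadjusted p under 0.01 were called, and p values were adjusted by the method of Benjamini and Hochberg over everything tested. The model was tested on simulated data. Read pairs were recovered from the step between low values of single-transcript genes (77.9% to 80.4% were whole within 0.1, mean fragments of 197 to 208 bp). Because not nearly all came out whole, read pairs served for floors and for an alternative in limma at 5 or more read pairs in at least 6 libraries, and intervals and floors cover counting error only. Correlations used 100000 permutations. Tables and plots were made with Python 3.11.15, pandas 2.3.3, numpy 2.4.6, scipy 1.17.1 and matplotlib 3.10.9.

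Members, classes and lists were chosen with earlier results of these data known. Named genes were those of the meningeal and vascular classes, called genes and transcripts, the 10 highest collagens, the 3 of widest range at a mean of 1 TPM or more, called genes of the other lists and genes of the relations. Alternatives were pseudocounts of 0.1 and 1, other filters, 2 other scalings, eBayes without trend, only the groups compared, a replicate block and leaving out each replicate. Removal of the length trend, recovered read pairs, leaving out 3 libraries, 2 relations and the subset of 9 libraries were chosen after seeing the data.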

Additional observations from a re-analysis of the deposited data

Results flagged for a closer look

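The difference of Col15a1 between single and combined exposure was picked out because the effect of ethanol without stress and with stress differed by the interaction term of the limma model (-1.74 on the log2 scale, adjusted p = 1). It kept its direction and call without any single library (-2.16 to -1.51), was -1.35 and not called without the 3 libraries with low long transcripts, and was 0.02 from read pairs.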

How the results depend on the processing

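Of 215 alternatives of counts and class medians, 186 stayed within 1.5 times the count or 1 SD of the median and 29 moved. In ethanol mice the count of called collagen genes (1) was 0 at a mean of 1 TPM or more, a filter that removes Col17a1 before the test, from read pairs, and without the 3 libraries with low long transcripts, where Col17a1 was still -0.69 (-0.86 in ethanol + stress mice). In ethanol + stress mice (1) it was 0 under the same 3 settings, 2 at a pseudocount of 1 and with the length trend removed, and 4 by eBayes without trend (1.17% of all genes). For the interaction (1) it was 0 from read pairs and without those 3 libraries. Leaving out single libraries gave 0 to 1 in ethanol, 0 to 1 in stress, 1 to 3 in ethanol + stress mice and 1 for the interaction, and 2 to 5, 0 to 1 and 0 to 2 called transcripts. Of these settings only eBayes without trend has the share of all genes beside it. The other counts are therefore not read as results about collagens. The transcript count in stress mice (1) was 0 at a pseudocount of 1. The vascular median became -0.14 from read pairs in ethanol mice and 0.25 without the 3 libraries in ethanol + stress mice. From read pairs, Col17a1 was 0.24 in ethanol and 0.02 in ethanol + stress mice and the Col15a1 interaction 0.02, since short isoforms carry little weight there. Other causes were not tested.

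With a replicate block, 2 collagen genes were called in ethanol mice and 3 in ethanol + stress mice, against 0.732% and 0.901% of all genes. Replicate numbers did not pair the mice: same-numbered libraries had correlations of -0.173 to 0.164, so the block is given here only.

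Rescaling to a common total moved the median of all genes by up to 0.21 (log2), and r then passed for Col6a1 with Col6a2 (0.74), Col1a2 with Col3a1 (0.74) and Col1a2 with Dcn (0.67). Of 1649 alternatives for named collagen genes and transcripts, 138 changed the sign of an uncalled value. The 3 mice per group, and medians under 30 read pairs for 17 genes, limit what could be detected.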

Other observations

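The type IV chains of the kidney and inner ear were low in this tissue. Col4a5 had a mean of 1.95 TPM, Col4a3 of 0.766 TPM, Col4a6 of 0.346 TPM and Col4a4 of 0.142 TPM, and none was called in any comparison. For Col4a3 a transcript of 627 bases, Col4a3-204, held 64.1% of the TPM, whereas Col4a3-201 held 72.5% of the read pairs. Col10a1, the collagen of hypertrophic cartilage, was listed at 0 in control 2 and ethanol 2 and had at most 8.98 read pairs. Col24a1 was too low to be tested, with about 1 read pair in each control library (0.999, 0.997 and 0.996) and 0.997 to 6.98 read pairs in the exposed libraries.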
